A study of Mus musculus with 26 samples.

Results

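Vision depends on a light-sensitive aldehyde of vitamin A that photoreceptors use up and cannot remake alone. The retinal pigment epithelium (RPE) takes up the spent retinol, esterifies it, isomerizes it and hands back the 11-*cis* form, a route known as the visual cycle. Retinol reaches the RPE from the choroidal blood on retinol-binding protein, which travels with transthyretin. The 9 genes described here cover that route by name: *Ttr* (transthyretin) and *Stra6* (the receptor for retinol-binding protein) for transport, *Lrat* (lecithin retinol acyltransferase, which makes retinyl esters), *Rpe65* (the isomerohydrolase), *Rlbp1* (the 11-*cis*-retinoid carrier CRALBP), the retinol dehydrogenases *Rdh5*, *Rdh10* and *Rdh11*, and *Rgr* (a retinal-binding opsin of the RPE). They were chosen by their function, from a list of names. All 9 were among the 16426 genes of the scRNAseq tables and among the 17623 genes of both bulk tables used here.

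The scRNAseq data come from RPE/choroid of 3-month-old mice, in 1 library of B6129PF1/J and 1 of C57BL/6J, each pooled from a male and a female eye and sorted for nucleated live cells. They hold 3637 cells with 17168578 unique molecular identifiers (UMIs) and 3928 cells with 15230413 UMIs, and 22 cell barcodes occur in both libraries. The bulk tables give the average over 3 libraries per group, as FPKM, fragments scaled by transcript length and library depth. One compares RPE/choroid of 6-month-old *Ihh* iΔEC/iΔEC mice with *Ihh*+/+ littermates. Both groups carried a tamoxifen-inducible Cre driven by the *Cdh5* promoter and received tamoxifen 12 weeks earlier, so they differ in whether endothelial cells (ECs) could lose *Ihh*. Another compares cultured GLI1+ cells from *Gli1* GFP/+ mice (labelled SWR/J; the study outcrossed this reporter line to BALB/c) after 24 h with 100 nM of the Hedgehog agonist SAG or with DMSO. A last table holds 99 genes enriched in ECs sorted from choroid of 1-month-old B6129PF1/J mice, beside ECs from heart, liver, lung and neural retina. The choroidal EC libraries are not among the samples of this series, and the paper states that their data were deposited earlier. The scRNAseq has 1 library per strain and the bulk expression values are group averages, so no test between groups was run: intervals are 95% intervals for counting error only, and the bulk values have no error.

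Within RPE, cluster 1 of the authors, the 9 genes spanned more than 3 orders of magnitude and stood in the same order in both strains. Levels are UMIs of a gene per 10,000 UMIs of the cluster. Each UMI marks 1 captured 3′ end, so levels compare between genes without a length correction. The cluster held 407 cells with a median of 5263 UMIs in B6129PF1/J and 374 cells with a median of 3406.5 in C57BL/6J. Of the RPE markers, *Slc16a8* (29.9 and 26.2 in the libraries in that order), *Rrh* (7.78 and 5.61), *Otx2* (3.71 and 3.03) and *Mitf* (0.687 and 0.509, against 3.72 and 5.20 in melanocytes) were present. *Best1* was at 0.010 and 0 in the same cells and at 0.561 FPKM in *Ihh*+/+ tissue. *Slc1a3* of Müller glia was at 0.020 and 0.011 in RPE. *Rom1*, which is on the rod list, was at 2.79 and 3.03.

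The transport protein led by far. *Ttr* (chromosome 18 of GRCm38, 20665280-20674321, plus strand) had 1115 (95% interval 1111 to 1119) UMIs per 10,000 in B6129PF1/J and 1046 (1041 to 1051) in C57BL/6J, the highest level of any gene in RPE of both libraries. It made up 11.2% and 10.5% of all RPE UMIs, and the other 8 genes together made up 3.66% and 3.45%. The receptor *Stra6* (chromosome 9, 58063788-58153996, plus strand) was far lower, at 6.48 (6.19 to 6.77) and 7.18 (6.79 to 7.59). It overlaps *Ccdc33* on the other strand and *Gm16131* on its own, so reads in the shared parts may have been assigned to either.

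*Rgr* (chromosome 14, 37034909-37048964, minus strand) was second at 157 (156 to 158) and 138 (136 to 139.7), sixth and eighth among all genes of the RPE. *Rdh5* (chromosome 10, 128913593-128922888, minus strand), the 11-*cis*-retinol dehydrogenase, followed at 77.8 (76.8 to 78.8) and 76.2 (74.9 to 77.5). *Rpe65* (chromosome 3, 159599175-159625321, plus strand) had 57.9 (57.1 to 58.8) and 59.9 (58.7 to 61.0), and *Rlbp1* (chromosome 7, 79374870-79387048, minus strand) had 40.6 (39.9 to 41.4) and 36.8 (35.9 to 37.7). These 4 genes differed from each other beyond their counting intervals in both libraries.

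The remaining enzymes were lower. *Rdh10* (chromosome 1, 16105774-16133734, plus strand), which also makes retinal for retinoic acid synthesis, had 16.7 (16.3 to 17.2) and 16.5 (15.9 to 17.1). *Lrat* (chromosome 3, 82892579-82903973, minus strand) had 8.69 (8.36 to 9.03) and 9.48 (9.03 to 9.95), above *Stra6* in both libraries. *Rdh11* (chromosome 12, 79174337-79192293, minus strand) was last at 0.557 (0.476 to 0.648) and 0.727 (0.606 to 0.864). In whole *Ihh*+/+ tissue, in FPKM, the same order returned apart from 1 exchange, with *Stra6* at 209 above *Lrat* at 143. *Ttr* was at 4634, *Rgr* at 2653, *Rdh5* at 862, *Rpe65* at 682, *Rlbp1* at 606, *Rdh10* at 341 and *Rdh11* at 18.2.

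Start-site windows of some of these genes are shown because the genes differ in how far RPE stood above the other clusters, least for *Rdh11*. For *Rpe65*, *Rgr* and *Rlbp1* the RPE level was 52.8 to 96.4 times that of the next cluster. *Rdh5*, whose window is not shown, was at 58.4 times in both libraries, the widest margin of the 9 genes in C57BL/6J. RefSeq windows of 300 bases on GRCm38.p6, each spanning a RefSeq start site, were used for 7 of the 9 genes, all but *Ttr* and *Rdh10*. These start sites can differ from the gene positions given above, and the *Rgr* window lies wholly upstream of the position given for that gene. Capitals mark TAATCC (its reverse strand is GGATTA), the core bound by OTX and CRX homeodomain factors, and the E-boxes CACGTG and CATGTG (reverse strand CACATG), which MITF family factors can bind. The motifs do not overlap in these windows. The sequences below run 5′ to 3′ on the strand of the gene.
Rpe65, chr3:159598931-159599230, plus strand: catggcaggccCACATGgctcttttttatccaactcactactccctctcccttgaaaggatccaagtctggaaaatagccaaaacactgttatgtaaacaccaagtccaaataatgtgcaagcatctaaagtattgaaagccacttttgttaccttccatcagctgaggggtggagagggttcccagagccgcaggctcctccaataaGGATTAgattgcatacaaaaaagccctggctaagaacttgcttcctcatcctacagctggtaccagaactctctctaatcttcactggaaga
Rgr, chr14:37048965-37049264, minus strand: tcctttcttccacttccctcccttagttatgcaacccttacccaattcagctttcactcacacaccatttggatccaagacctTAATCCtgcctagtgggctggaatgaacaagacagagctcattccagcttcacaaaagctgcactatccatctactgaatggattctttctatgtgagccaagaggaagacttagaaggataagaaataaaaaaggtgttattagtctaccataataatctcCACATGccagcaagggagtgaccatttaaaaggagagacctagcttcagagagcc
Rlbp1, chr7:79386978-79387277, minus strand: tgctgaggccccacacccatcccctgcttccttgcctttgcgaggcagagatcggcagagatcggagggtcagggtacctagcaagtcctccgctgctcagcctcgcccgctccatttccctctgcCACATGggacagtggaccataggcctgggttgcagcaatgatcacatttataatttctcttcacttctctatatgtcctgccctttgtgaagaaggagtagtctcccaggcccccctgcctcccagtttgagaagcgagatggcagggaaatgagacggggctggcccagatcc
Rdh11, chr12:79191806-79192105, minus strand: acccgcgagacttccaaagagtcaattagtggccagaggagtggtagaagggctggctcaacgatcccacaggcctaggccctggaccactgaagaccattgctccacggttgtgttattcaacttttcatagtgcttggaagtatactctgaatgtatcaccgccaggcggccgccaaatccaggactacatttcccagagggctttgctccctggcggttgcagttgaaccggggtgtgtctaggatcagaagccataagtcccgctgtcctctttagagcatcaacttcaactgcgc

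TAATCC was found in the windows of *Rpe65* and *Rgr*, and in 7.06% of all 32851 windows. CATGTG was found in those of *Rpe65*, *Rgr* and *Rlbp1*, and in 14.2% of all windows. Neither these nor CACGTG, which 7.15% of windows hold, occurred in the windows of *Lrat* and *Rdh5*, in the 4 windows of *Stra6* or in the *Rdh11* window shown. A further *Rdh11* window held CACGTG at 2 places. TATAAA (reverse strand TTTATA) is in the *Rlbp1* window and in 13.6% of all windows, and is not in capitals above. The windows of *Rgr* and *Rpe65* hold 0 and 1 CG dinucleotides, those of *Rlbp1* and *Rdh11* 8 and 11, and that of *Lrat* 21, against a median of 7. A match is a string of letters and does not show binding, and a window without one says nothing of sites elsewhere. Whether matches go with the margin of RPE over other clusters was not tested.

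**Figure D1:**
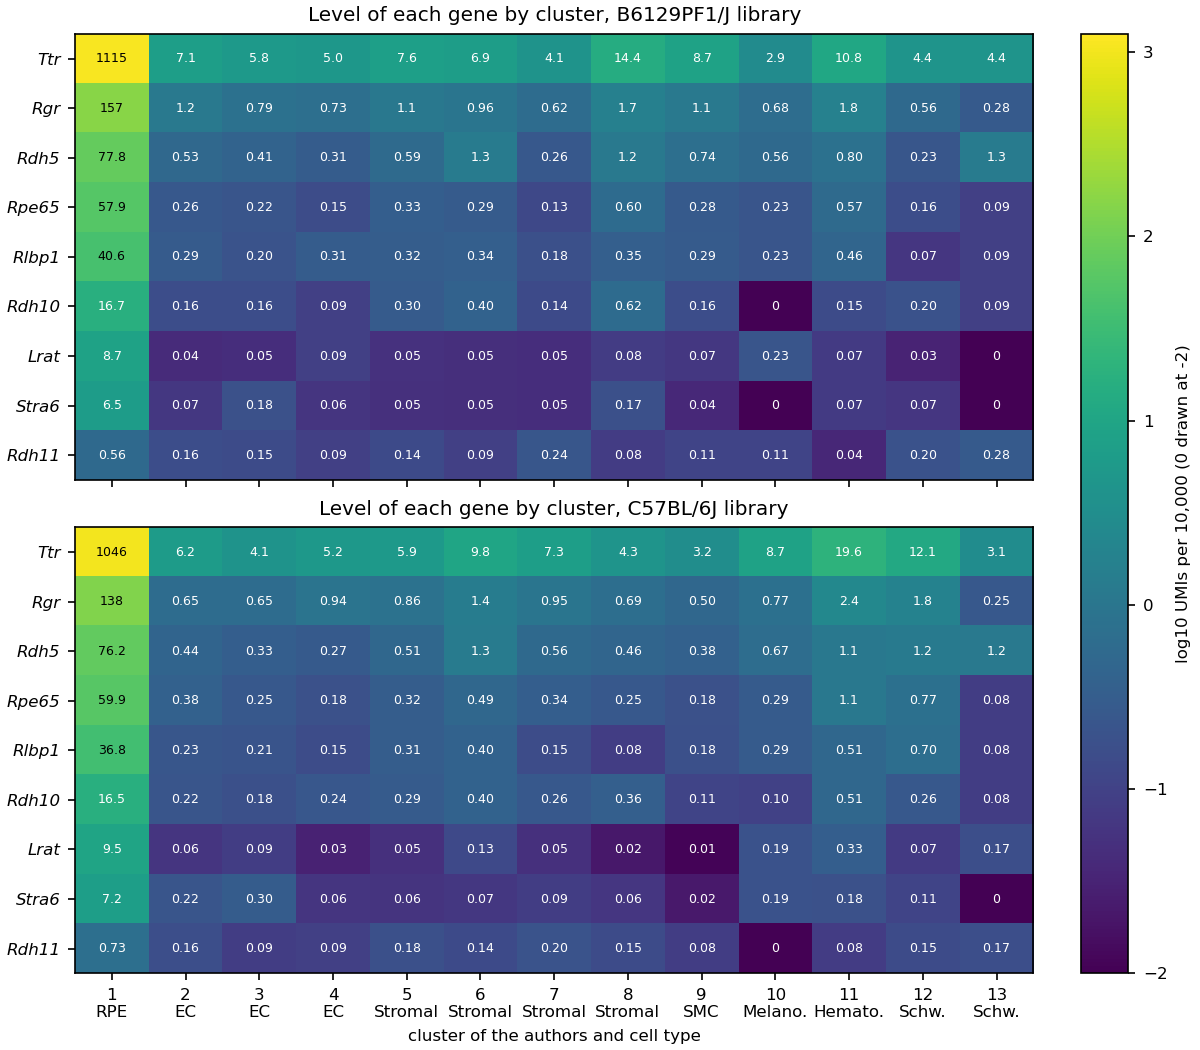
UMIs per 10,000 (numbers in the cells, colour on a log10 scale with 0 drawn at the floor) of the 9 genes in the 13 clusters of the authors, for each library. In every row of both panels the leftmost cell, RPE, is the highest, from 1115 for *Ttr* to 0.557 for *Rdh11* in B6129PF1/J; EC, endothelial cells; SMC, smooth muscle cells; Melano., melanocytes; Hemato., hematopoietic cells; Schw., Schwann cells.

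All 9 genes were highest in cluster 1 in both libraries. Of the 11193 genes with at least 50 UMIs in each library, 6.22% were. The margin varied. *Rpe65* was 96.4 (95% interval 70.2 to 136) times as high in RPE as in the next cluster in B6129PF1/J and 55.0 (43.2 to 71.2) times in C57BL/6J. Without a few non-RPE cells rich in RNA of other RPE genes, described further on, these factors were 257 and 168, *Ttr* went from 77.5 and 53.5 to 215 and 121, and *Rgr* from 89.5 and 56.5 to 214 and 147. For *Rdh5* the factor was 58.4 (51.8 to 66.1) and 58.4 (51.5 to 66.5), and the next cluster was stromal cluster 6 in both libraries. For *Stra6* it was 35.5 (26.3 to 49.0) and 23.9 (19.1 to 30.3), with EC cluster 3 next in both. For *Rdh11* the factor was 1.99 in B6129PF1/J, with an interval of 0.671 to 9.77 that includes equal levels, and 3.56 (1.97 to 7.07) in C57BL/6J.

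Single RPE cells carried the main genes almost without exception. Before any thinning, *Ttr* had a UMI in 100% of RPE cells of both libraries, with a median of 588 and 345.5 UMIs per cell. *Rdh5*, *Rgr*, *Rlbp1* and *Rpe65* were found in at least 98.5% of the cells. To set depth equal, each cell was thinned to 1700 UMIs, which left out no cell. *Lrat* then remained in 67.8% (95% interval 63.0 to 72.3) of the B6129PF1/J and 79.1% (74.7 to 83.2) of the C57BL/6J cells, against 90.9% and 90.6% before. *Stra6* remained in 65.8% (61.0 to 70.4) and 63.4% (58.3 to 68.3), against 89.4% and 84.2%, and *Rdh11* in 9.09% (6.48 to 12.3) and 12.6% (9.38 to 16.4), against 28.7% and 25.7%.

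From the 5th to the 95th percentile of RPE cells, *Ttr* spanned 629 to 1638 UMIs per 10,000 in B6129PF1/J and 492 to 1547 in C57BL/6J. The ratio of these percentiles was 2.61 and 3.14 for *Ttr*, 4.40 and 4.25 for *Rpe65*, and 8.07 and 8.504 for *Rdh10*. Of the genes with a 5th percentile above 0, *Rdh10*, the lowest, thus spread widest, and a low count alone widens the range. Spread did not follow level throughout, since *Rgr* had ratios of 3.32 and 4.80 and the lower *Rdh5* had 2.86 and 3.63. Of the 36 pairs among the 9 genes, 31 had a Spearman correlation under 0.2 in size across thinned RPE cells in both libraries. The highest was that of *Rgr* with *Rdh5*, 0.384 over 407 cells and 0.388 over 374 cells. *Ttr* with *Rgr* gave 0.264 and 0.385, and *Rlbp1* with *Rpe65* gave 0.218 and 0.211. Cells of a library share its preparation, so these values describe 2 libraries.

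**Figure D2:**
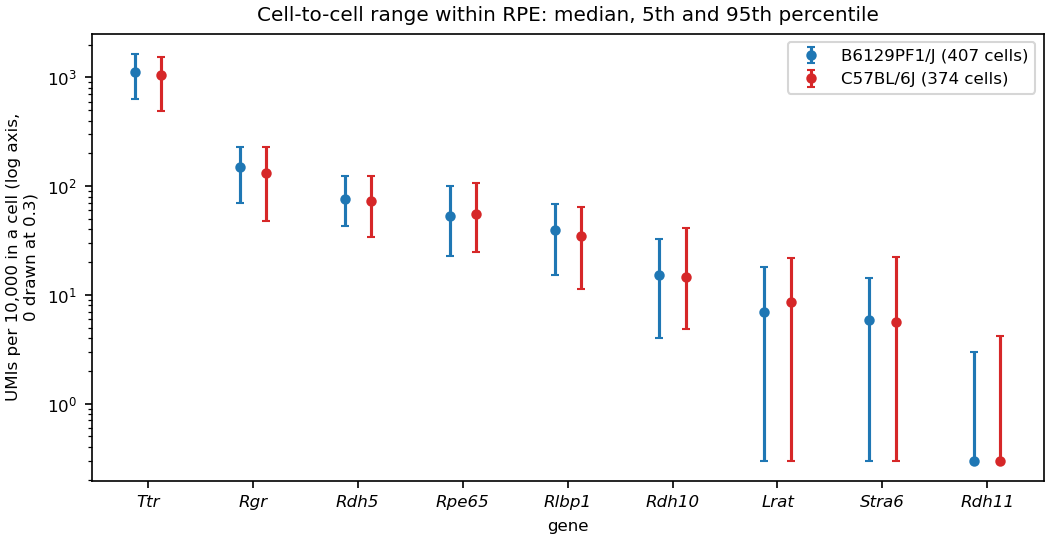
UMIs per 10,000 in single RPE cells (log axis, 0 drawn at 0.3) for the 9 genes. Points are medians over the 407 cells of B6129PF1/J and the 374 cells of C57BL/6J, and bars run from the 5th to the 95th percentile; both libraries give the same order, and the bars of *Lrat*, *Stra6* and *Rdh11* reach 0.

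The strains differed little in RPE. None of the 9 genes was past 1.5-fold, as were 5.21% of the 3399 genes with at least 50 UMIs in RPE of each library. The ratio of B6129PF1/J to C57BL/6J was 0.968 (95% interval 0.944 to 0.991) for *Rpe65*, 1.02 (0.999 to 1.04) for *Rdh5* and 1.02 (0.969 to 1.06) for *Rdh10*. *Rgr* was at 1.14 (1.12 to 1.16), *Rlbp1* at 1.10 (1.07 to 1.14) and *Ttr* at 1.07 (1.06 to 1.07). *Stra6* was at 0.902 (0.840 to 0.969) and *Lrat* at 0.916 (0.861 to 0.975). *Rdh11* had the widest ratio, 0.766 (0.605 to 0.973), and was the only one to differ by over 25%, as did 22.9% of genes. The median log2 ratio of those genes was -0.06. Strain, library and the pooled mice cannot be told apart here.

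Outside RPE the genes differed from each other. *Ttr*, *Rgr*, *Rpe65* and *Rlbp1* were found at low levels in every cluster, and those levels were a similar share of the RPE level for each gene. *Ttr* had a UMI in 79.4% of the 3230 non-RPE cells of B6129PF1/J and in 63.9% of the 3554 of C57BL/6J, with a median of 2 and 1 UMIs per cell. Over the 9 non-RPE clusters of at least 100 cells, the 4 genes lay between 0.161% and 1.29% of their RPE level in B6129PF1/J and between 0.228% and 1.89% in C57BL/6J. Other RPE genes, none of them among the 9, served as a panel: *Slc16a8*, *Mt3*, *Slc6a20a*, *Ermn*, *Rrh*, *Otx2* and *Slc39a12*. Their median share of the RPE level, called the carry-over level here, was 0.157% to 1.20% in the 9 clusters where it could be set in B6129PF1/J, and 0.320% to 2.06% in C57BL/6J. In clusters 10, 12 and 13 the panel median was 0 in at least 1 library, and these were left out. As background, free RNA from one cell type enters the droplets of others in the proportions it has in its source.

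A few cells held much of this RNA. With *Mt3* left aside, since Schwann cluster 13 has it at a high level of its own, 20 of 3230 non-RPE cells (0.619%) in B6129PF1/J and 18 of 3554 (0.506%) in C57BL/6J had at least 5 panel UMIs. They carried 47.9% and 42.3% of all *Rpe65* UMIs outside RPE, 38.5% and 32.2% of those of *Ttr*, but 1.58% and 2.84% of those of *Rdh11*. One non-RPE cell had 821 *Ttr* UMIs in B6129PF1/J, and one had 706 in C57BL/6J, above the RPE medians. Without these cells *Ttr* was at 0.355% to 0.465% of its RPE level in the 9 larger clusters of B6129PF1/J and at 0.281% to 0.621% in C57BL/6J. *Rgr* was at 0.339% to 0.432% and 0.290% to 0.653%, and *Rpe65* at 0.193% to 0.301% and 0.186% to 0.596%. *Rlbp1* spanned 0.161% to 0.523% and 0.228% to 0.739%, the widest of the 4 in B6129PF1/J. No doublets were removed here, and whether these cells are doublets was not tested.

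**Figure D3:**
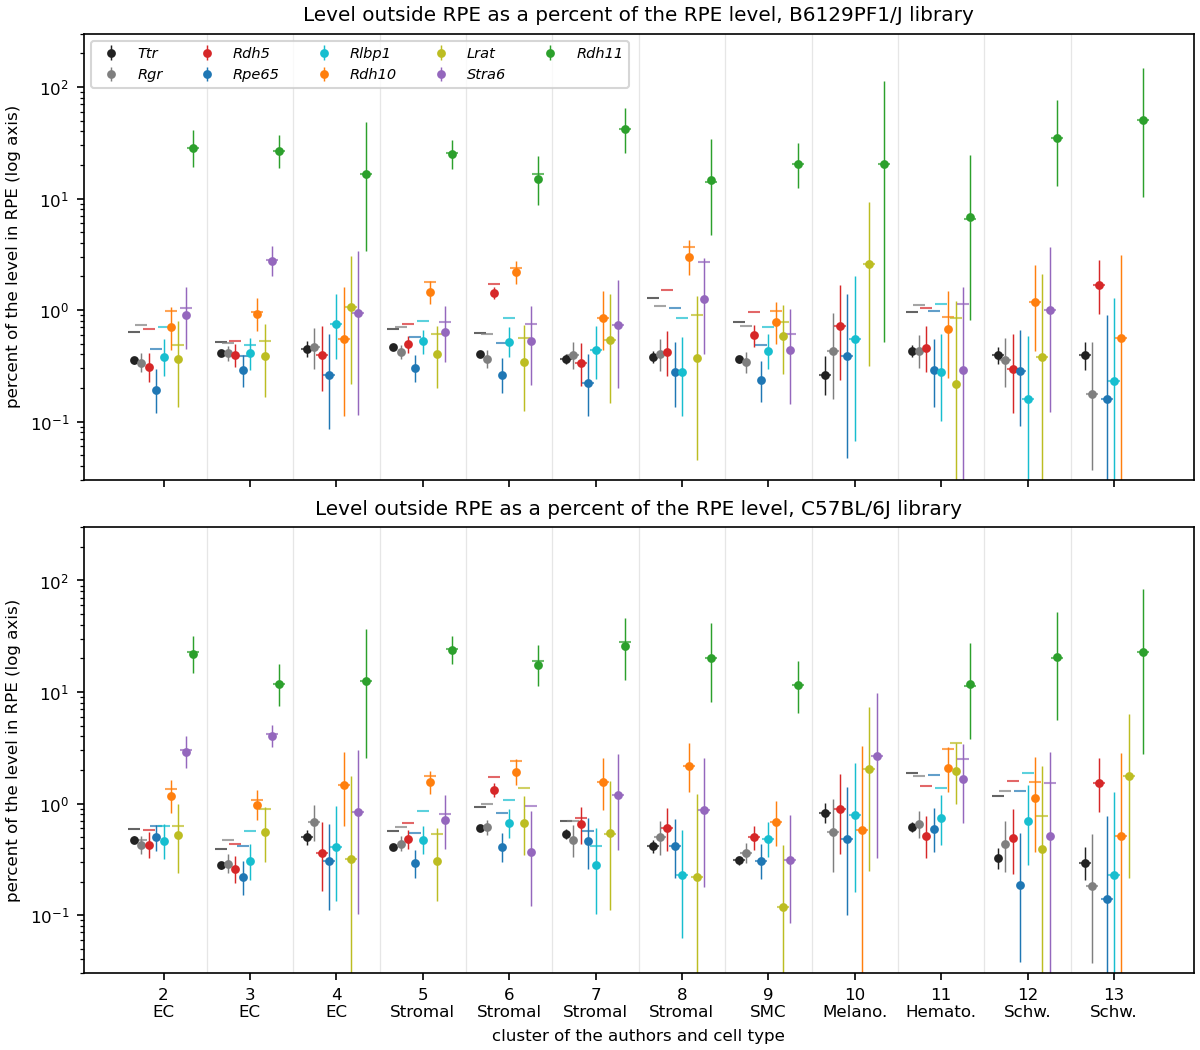
Level of each gene in the non-RPE clusters as a percent of its level in RPE (log axis), for each library. Points with 95% Poisson intervals leave out the non-RPE cells with at least 5 panel UMIs other than *Mt3*, short dashes include them, and a gene without a UMI in a cluster is not drawn. *Ttr* keeps to 0.355% to 0.465% in the clusters of at least 100 cells of B6129PF1/J. *Rdh11* stands far above in nearly every cluster, and *Stra6* in EC cluster 3. *Rdh5* in stromal cluster 6 and *Rdh10*, in stromal clusters 5, 6 and 8 among others, also lie above *Ttr*. With all cells kept, neither had a lower 95% limit of at least 3 times the carry-over level in the same cluster of both libraries.

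Against the carry-over level, 2 of the 9 genes stood out: *Rdh11* and *Stra6* had a lower 95% limit of at least 3 times that level in the same non-RPE cluster of both libraries. Of the 3383 other genes with at least 50 UMIs in RPE of each library, 96.5% did, so being found elsewhere is the rule among genes of the RPE. The 7 other genes, *Ttr*, *Rgr*, *Rpe65*, *Rlbp1*, *Lrat*, *Rdh5* and *Rdh10*, belonged to the few that did not meet this limit.

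*Rdh11* met it in 8 of the 9 clusters judged, all but hematopoietic cluster 11. It was at 28.3% and 22.6% of its RPE level in EC cluster 2, at 25.4% and 24.4% in stromal cluster 5 and at 42.3% and 28.1% in stromal cluster 7. In UMIs per 10,000 that is 0.236 (0.144 to 0.364) and 0.204 (0.106 to 0.357) in cluster 7. *Rdh11* is a retinal reductase of wide tissue distribution, and here it was found in every cluster of B6129PF1/J. In C57BL/6J it had 0 UMIs in the 26 melanocytes, with an upper limit of 0.355 per 10,000.

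*Stra6* met it in EC cluster 3 alone. It had 0.182 (0.133 to 0.245) UMIs per 10,000 there in B6129PF1/J and 0.301 (0.239 to 0.374) in C57BL/6J, 7.21 and 13.1 times the carry-over level. A UMI was found in 40 of 430 cells, 9.30% (6.73 to 12.5), and in 65 of 549 cells, 11.8% (9.26 to 14.8). In stromal cluster 6, of somewhat lower depth (median 3595 and 2870 UMIs against 4147 and 3430), the share was 1.66% and 1.16%. The UMIs were spread thin, with 1 UMI in 36 of the 40 cells and in 53 of the 65 cells. Cells with a *Stra6* UMI were deeper, with a median of 5297 and 5768 UMIs against 4047 and 3326.5 in those without. *Ttr* was at 6.63 and 6.52 UMIs per 10,000 in the cells of cluster 3 with *Stra6* and at 5.66 and 3.59 in those without. With the cells rich in panel UMIs left out it was at 3.81 and 3.48 against 4.75 and 2.83. In EC cluster 2 the libraries parted: *Stra6* was at 0.068 (0.036 to 0.117) in B6129PF1/J and at 0.219 (0.156 to 0.298) in C57BL/6J, and the latter was 4.47 times the carry-over level. *Ttr* was at 43.0 and 23.0 in the cells of cluster 2 with *Stra6* and at 5.46 and 4.31 in those without. With the cells rich in panel UMIs left out it was at 4.20 and 12.0 against 3.95 and 4.21. EC cluster 4, of 63 and 72 cells, had 2 UMIs in each library, which leaves an upper limit of 0.221 and 0.218.

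*Rdh5* came close in stromal cluster 6, where *Pdgfrb* was highest. It had 1.33 (1.18 to 1.4996) UMIs per 10,000 in B6129PF1/J and 1.305 (1.15 to 1.48) in C57BL/6J, 1.71% of its RPE level in both, which is 2.61 and 2.04 times the carry-over level. A UMI was found in 163 of 541 cells (30.1%) and in 133 of 603 cells (22.1%). In stromal cluster 5, at a like depth, it was found in 13.1% and 10.5%. Without the cells rich in panel UMIs, cluster 6 stayed at 1.43% and 1.32% of the RPE level. Among the cells left, those with an *Rdh5* UMI had *Ttr* at 4.48 in B6129PF1/J and at 16.2 in C57BL/6J, and the cells without *Rdh5* had it at 4.52 and 3.32. The other RPE gene was thus higher beside *Rdh5* in 1 of the 2 libraries. Schwann cluster 13, which could not be judged, had 1.303 (0.712 to 2.19) and 1.17 (0.639 to 1.96) from 14 UMIs in each library. *Rdh5* overlaps *Bloc1s1* on the same strand, so reads in their shared part may belong to either gene. *Bloc1s1* was at 1.05 and 1.11 in cluster 6, at 0.186 and 1.502 in cluster 13 and at 1.57 and 1.71 in RPE. Its part in the *Rdh5* values was not tested.

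*Rdh10* was above the panel in stroma and in ECs, but in no cluster past the limit in both libraries. It had 0.617 (0.439 to 0.843) and 0.356 (0.207 to 0.570) UMIs per 10,000 in cluster 8, 0.397 (0.315 to 0.493) and 0.400 (0.315 to 0.5004) in cluster 6, and 0.296 (0.239 to 0.362) and 0.292 (0.232 to 0.364) in cluster 5. These are 2.16% to 3.69%, 2.37% to 2.43% and 1.77% to 1.78% of the RPE level. Against the carry-over level, *Rdh10* was at 5.37 and 3.41 times in stromal cluster 7 and at 3.06 and 5.91 times in cluster 8. It was at 3.61 and 2.89 times in cluster 6 and at 2.57 and 2.82 times in cluster 5. In EC cluster 3 it was at 2.47 and 3.38 times and in EC cluster 2 at 1.60 and 2.00 times. Hematopoietic cluster 11 had 0.146 and 0.511 UMIs per 10,000, or 1.19 and 1.51 times. When the non-RPE cells with at least 5 panel UMIs, *Mt3* included, were left out, *Rdh10* passed the limit in stromal clusters 5, 6 and 8. It did not pass in the EC clusters. The carry-over level was then set anew from the same panel, which lowers it. In cluster 5 it went from 0.688% and 0.631% of the RPE level to 0.341% and 0.264%. *Rdh10* there went from 1.77% and 1.78% to 1.39% and 1.53%. Passing under this setting thus goes with a lower carry-over level, not with more *Rdh10*. With cells left out by the panel without *Mt3*, cells of cluster 6 with an *Rdh10* UMI had *Ttr* at 6.28 and 23.3. Those without *Rdh10* had it at 4.23 and 4.20. *Lrat* had at most 25 UMIs in any non-RPE cluster, and in none of the clusters judged was it past the limit in either library. In stromal cluster 5 *Lrat* was at 0.895 and 0.845 times the carry-over level. It was at 1.34 and 2.82 times in EC cluster 3, with lower limits of 0.670 and 1.79. In stromal cluster 7 it was at 3.45 and 1.18 times, with lower limits of 0.939 and 0.244.

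The genes closest to each member in pattern were found by Pearson correlation of log2 levels over the 26 values of 13 clusters in 2 libraries, among 7564 genes. This describes shared cell types and shared free RNA alike. *Rpe65*, *Rgr* and *Ttr* were each other's nearest, at 0.988 to 0.990, and *Rlbp1* followed at 0.978 to 0.984. Their nearest genes off the list were *Slc16a8*, a lactate transporter, with *Ttr* at 0.988, and *Slc6a20a* with *Rlbp1* at 0.984. *Lrat* was nearest to *Acsl6* and *Krt18*, both 0.974, and *Stra6* to *Mfsd7c*, at 0.972. *Rdh10* was nearest to *Rd3l* at 0.968 and *Rdh5* to *Mogat1* at 0.9497. *Rdh11* was least like the rest: its nearest gene was *BC004004* at 0.881, and its correlation with the other 8 genes was 0.631 to 0.707.

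Other genes of retinoid handling divided among cell types. Of 17 genes of retinoid binding and uptake, 12 were in the tables and 11 had at least 50 UMIs in each library. *Lrp2*, a multiligand uptake receptor, was highest in RPE, at 0.470 and 0.646 UMIs per 10,000. *Rbp7* was highest in EC cluster 3 (0.257 and 0.427) and *Crabp2*, which binds retinoic acid, in stromal cluster 7 (0.871 and 0.919). *Rbp4*, the serum carrier of retinol, was highest in stromal cluster 5, at 1.43 and 0.303. Of 9 other retinoid enzymes and transporters with enough UMIs, 4 were highest in RPE in both libraries. *Rrh*, the opsin peropsin, had 7.78 and 5.61, the sphingolipid desaturase *Degs1* 7.44 and 7.35, *Abca4* 1.42 and 1.36 and *Retsat* 0.377 and 0.452.

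None of the 11 measured genes of retinoic acid synthesis, breakdown and reception was highest in RPE, and 4 were highest in an EC cluster in both libraries. *Aldh1a2*, which oxidizes retinal to retinoic acid, was at 3.70 and 2.60 in stromal cluster 8, at 2.00 and 2.42 in cluster 6 and at 0.047 and 0.074 in RPE. *Aldh1a1* was highest in Schwann cluster 12, at 3.33 and 2.27, and at 1.51 and 1.41 in stromal cluster 5. The retinoic acid hydroxylase *Cyp26b1* was highest in EC cluster 2, at 1.11 and 2.11, with the receptor *Rarg* at 2.22 and 1.90. *Cyp26a1* was highest in stromal cluster 7, at 0.871 and 2.08. In the same units *Rdh10*, which supplies retinal to the *Aldh1a* enzymes, was at 16.7 and 16.5 in RPE and at 0.617 and 0.356 in stromal cluster 8.

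In RPE/choroid tissue, EC deletion of *Ihh* left the 9 genes slightly higher and did not take any past 1.5-fold. *Ihh* itself averaged 1.53 FPKM in *Ihh*+/+ and 0.454 FPKM in deleted tissue, and *Gli1*, a Hedgehog target, 9.40 and 3.15 FPKM. *Rpe65* averaged 682 and 914 FPKM, a log2 ratio of 0.42. *Rgr* averaged 2653 and 3279.9 (0.31), *Lrat* 143 and 175 (0.30), *Stra6* 209 and 254 (0.28), *Rdh10* 341 and 408 (0.26), *Rdh11* 18.2 and 21.9 (0.26), *Rdh5* 862 and 1029.9 (0.26), *Ttr* 4634 and 5454 (0.24) and *Rlbp1* 606 and 703 (0.21). Thus 8 of the 9 lay within 0.1 of each other on the log2 scale, and *Rpe65* lay above them. Of the 11411 genes with at least 1 FPKM in a group, 4.43% were past 1.5-fold, 2.02% higher and 2.41% lower, and 40.7% had a ratio above 1. The median log2 ratio was 0.26 for the 9 genes and -0.04 for all genes. *Rpe65* was the only one to differ by over 25%, as did 13% of genes.

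The RPE panel moved as the 9 genes did. Its 6 measured genes had log2 ratios of 0.23 to 0.39, with a median of 0.33, and when FPKM were scaled to the panel's median ratio of 1.26, *Rpe65* alone kept a ratio above 1, at a log2 ratio of 0.09. The other 8 then ranged from -0.12 for *Rlbp1* to -0.03 for *Rgr*. The lists of other cell types went both ways. All 5 stromal markers were lower, with a median log2 ratio of -0.61, and so were all 5 EC markers, with a median of -0.25. The median was -0.61 for 5 melanocyte genes and -1.23 for 13 rod and cone genes, of which 11 were past 1.5-fold lower. *Rom1* and *Gnat2*, the 2 that were not, were also found in RPE cells. The list of ciliary and choroid plexus epithelium, which also make *Ttr*, had a median of 0.27 over 9 genes, *Ttr* and *Otx2* included. Of these genes 8 had a ratio above 1, with *Folr1* at 9.31 and 17.4 FPKM. Among the cells, however, 7 of the 9 genes of this list with at least 50 UMIs in each library were highest in RPE in both. *Folr1* was one of them, so this list does not tell such epithelium apart from RPE here. The 5 hematopoietic genes had a median of 0.13, with *Lyz2* highest at 0.49, above each of the 9 genes. Other retinoid genes moved both ways: of the 10 measured genes of retinoic acid synthesis and reception, 4 had a ratio above 1. Past 1.5-fold were 3 of the 11 measured genes of retinoid binding and uptake and 1 of the 11 measured other retinoid enzymes and transporters. Among the 10 genes of retinoic acid, those past 1.5-fold were *Aldh1a2* and *Cyp26a1*. *Aldh1a2* was at 16.7 FPKM in *Ihh*+/+ and 10.5 FPKM in deleted tissue, and *Cyp26a1* at 8.53 and 16.0 FPKM. Both were highest in stroma among the cells. The part of these cell types in the ratios of the 9 genes was not tested, and fewer cells of a type cannot be told apart from less RNA per cell in bulk tissue.

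**Figure D4:**
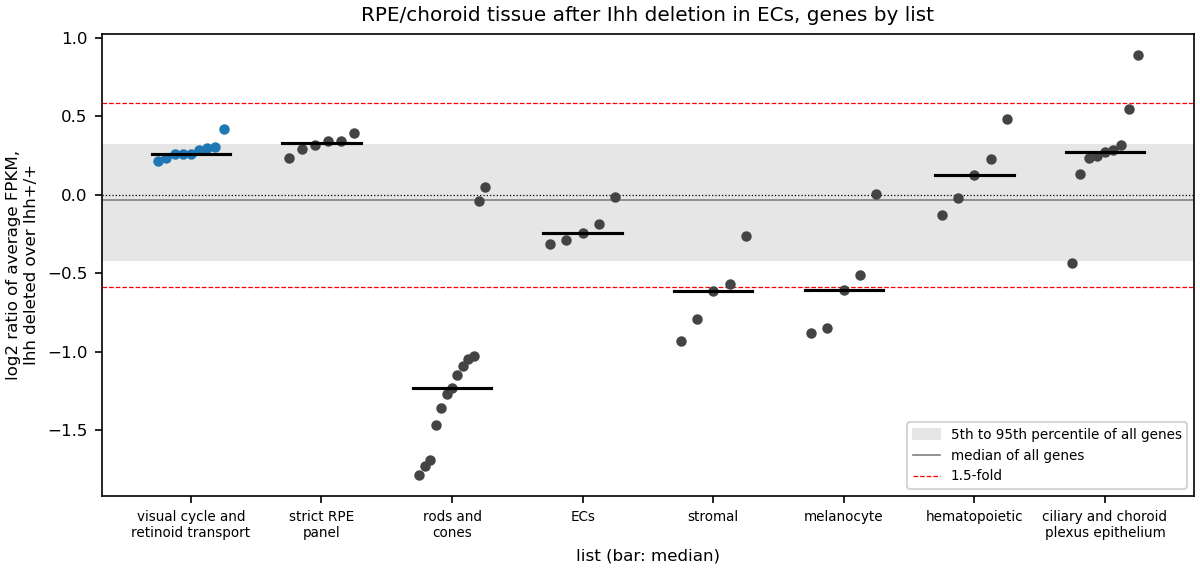
Log2 ratio of average FPKM, *Ihh* deleted over *Ihh*+/+ (pseudocount 0.1), for genes with at least 1 FPKM in a group; each point is a gene and each black bar the median of its list. The 9 visual cycle and retinoid transport genes (blue) lie between 0.21 and 0.42, beside the RPE panel at 0.23 to 0.39, while the rod and cone genes have a median of -1.23; the grey band spans the 5th to 95th percentile of all genes, -0.41 to 0.32, and dashed lines mark 1.5-fold.

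In cultured GLI1+ cells, 6 of the 9 genes kept to a narrow share of their tissue level and 3 lay above it. Tables were normalized separately, so a share of the tissue level sets values side by side across experiments. In GLI1+ cells with DMSO, *Rpe65*, *Rlbp1*, *Lrat*, *Rgr*, *Stra6* and *Ttr* averaged 0.104 to 3.33 FPKM. For each of the 6 this was 0.062% to 0.084% of its level in *Ihh*+/+ tissue, although those levels span 143 to 4634 FPKM. The median share of the RPE panel was 0.069%. *Rdh5* stood above, at 1.72 FPKM or 0.1997%, *Rdh10* at 4.72 FPKM or 1.38%, and *Rdh11* at 6.57 FPKM or 36.0%. The panel had its own exception in *Slc39a12*, at 0.836%.

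With SAG none of the 5 genes that reached 1 FPKM was past 1.5-fold, as were 3.67% of the 10325 genes tested, 1.3% higher and 2.37% lower. *Rdh10* averaged 4.72 FPKM with DMSO and 4.84 with SAG, and *Rdh11* 6.57 and 6.47. *Rdh5* averaged 1.72 and 1.43 (log2 ratio -0.25). *Ttr* averaged 3.33 and 4.50 (0.42) and *Rgr* 2.01 and 2.54 (0.32). The RPE panel, at FPKM values of 0.023 to 0.196 with DMSO, had a median log2 ratio of 0.38. *Gli1* was at 0.028 and 3.65 FPKM. Of all genes tested, 67.9% had a ratio above 1, as did 3 of the 5 members tested. The 4 members under 1 FPKM also had ratios above 1, which makes 7 of the 9.

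Of the 99 genes listed as enriched in choroidal ECs, 3 belong to the visual cycle. *Rgr* averaged 50.9 FPKM in choroidal ECs and 1.86 in neural retina ECs, and was listed at 0 in lung, liver and heart ECs. *Rpe65* averaged 21.8 and 0.979 FPKM and was listed at 0 in the other 3. *Rdh5* averaged 18.9 and 3.00 FPKM, and 1.02, 0.351 and 2.27 FPKM in lung, liver and heart ECs. In choroidal ECs these were 1.92%, 3.199% and 2.19% of the *Ihh*+/+ tissue level. Other RPE genes of the table had like shares, with *Ptgds* at 1.69%, *Ermn* at 2.60% and *Rrh* at 4.61%. In the scRNAseq EC clusters 2 to 4 the 3 genes were at 0.264% to 0.736% of the RPE level.

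**Figure D5:**
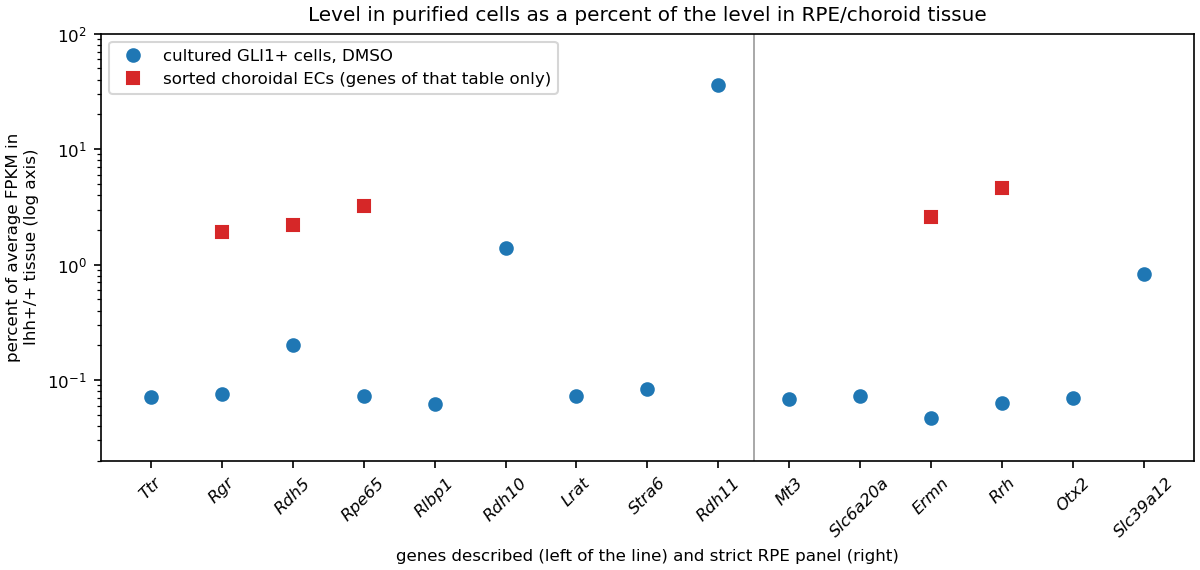
Average FPKM in cultured GLI1+ cells with DMSO (circles) and in sorted choroidal ECs (squares, for genes of that table) as a percent of the average in *Ihh*+/+ RPE/choroid tissue, on a log axis, for the 9 genes and for 6 genes of the RPE panel. In GLI1+ cells 6 of the 9 genes lie between 0.062% and 0.084%, and *Rdh11* stands at 36.0%.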

How the data were processed

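Single cells of RPE/choroid were profiled by 10x 3′ scRNAseq, 1 library per strain, and the authors deposited UMI counts per gene and cell with their cluster labels (Cell Ranger; Seurat 2.1). Labels and cells were used as deposited, all cells have over 1700 UMIs, and no doublets were removed. For bulk RNA, the authors aligned reads with STAR 2.4.0f1 and deposited FPKM (Cufflinks 2.0.2) as group averages, with their log2 fold changes and adjusted p-values, which were not used here; nor were their averages, fold differences and p-values per cluster. FPKM carry no depth. The counts per library are unnormalized.

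UMIs were summed per cluster and library and divided by the cluster total, with exact Poisson intervals for levels and exact Clopper-Pearson intervals for shares, at 95%. Ratios of levels have conditional binomial intervals. Bulk ratios were taken on log2(FPKM + 0.1) for genes that reached 1 FPKM in either group. A gene was counted above carry-over where its lower limit was at least 3 times its RPE level times the median share of the RPE panel, of which 7 of 8 genes had at least 50 UMIs in RPE and *Best1* did not. Patterns used log2(UMIs per 10,000 + 0.1) over genes with at least 200 UMIs in each library. Named genes are the 9 genes, 2 to 4 genes of the highest level in a list and the 3 nearest genes in pattern. Other genes named, such as those lower in a list, past 1.5-fold in bulk or overlapping a member, were chosen after their values were seen. The 9 genes, the lists and the tests were chosen with earlier results of these data known. The steps were tested on simulated data. Analyses ran in Python (version 3.11.15) with pandas (2.3.3), scipy (1.17.1), numpy (2.4.6) and, for plots, matplotlib (3.10.9). Gene positions come from the GRCm38 annotation.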

Additional observations from a re-analysis of the deposited data

How the results depend on the processing

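Counts of genes were recomputed under thinned cells, the mean over cells in place of the sum, other scalings, pseudocounts and minimums, other panels, and without non-RPE cells rich in panel UMIs. The settings that used the panel without *Mt3*, and the counts of genes with a bulk ratio above 1, were chosen after seeing the data. Of 30 values of the main counts, 26 stayed within 1.5 times. With a difference of 25% in place of 1.5-fold, 1 of the 9 genes passed between strains (*Rdh11*) and 1 with *Ihh* deletion (*Rpe65*). Scaled to the RPE panel, 1 gene had a ratio above 1 with *Ihh* deletion in place of 9. With no minimum FPKM, 2 genes passed 1.5-fold with SAG (*Rpe65* and *Rlbp1*, both under 1 FPKM). *Rdh11* in RPE of B6129PF1/J was 0.876 times its level in Schwann cluster 13 when the cells with at least 5 panel UMIs, *Mt3* included, were left out, since 20 of the 30 cells of that cluster then go. Without the cells rich in panel UMIs the factors of RPE over the next cluster rose to as much as 257. No paired analysis was possible because the bulk tables hold group averages and each strain has 1 library, and for the same reason no replicate could be left out. Depth limits *Rdh11*, *Lrat* and *Stra6* in the clusters under 100 cells.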
